A study of Homo sapiens with 8 samples.

Results

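The tumour necrosis factor (TNF) ligand and receptor superfamilies were examined in hCMEC/D3 cells. This immortalised human line came from the endothelium of brain microvessels and is widely grown as an in vitro blood-brain barrier. Members were chosen by gene symbol: every TNFRSF or TNFSF gene with a number, plus TNF, LTA, LTB, LTBR, FAS, FASLG, CD40, CD40LG, CD27, CD70 and NGFR. This gave 44 of the 23346 genes listed. Polyadenylated RNA from 8 replicates was sequenced from TruSeq v2 libraries. The replicates formed 1 group, with no treatment, dose or time in the labels, so no condition was compared. The labels did not say whether the replicates were separate cultures, so the p-values measure only the spread between these libraries, which may be technical. All libraries came from 1 line made immortal with telomerase and a viral T antigen, and its medium and any cytokine exposure were not given in the labels.

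TNF family ligands are mostly membrane proteins that act as trimers, and many are released by proteases. Their receptors fall into those with a cytoplasmic death domain, which recruit adaptors such as FADD and TRADD and can start apoptosis, those that bind TRAF adaptors and activate NF-κB, and decoys that bind ligand without signalling to death. In brain endothelium this system is known for the response to inflammatory TNF, which loosens junctions and raises the adhesion molecules that capture leukocytes.

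Total counts were 69388544 to 90205244 per library, and as all 186768 counts were even, 1 counting step was 2 counts. Levels are given as CPM (the usual library-size scaling of counts, here with TMM factors), and levels of different genes are set side by side only as RPKM (CPM per kilobase of the gene's canonical transcript). All 8 endothelial marker genes (PECAM1, CDH5, VWF, KDR, TEK, CLDN5, ERG and ESAM) were detected, with summed levels of 1698 to 3194 CPM. None of 6 T cell and none of 5 B cell markers was detected, and CD2 had no counts. The T cell marker IL7R, however, had a mean of 2.49 CPM and up to 4.59 CPM. It fell below 1 CPM only in replicates 2 and 8, at 0.421 and 0.473 CPM. Of 6 myeloid markers LYZ and CD14 passed at low levels, while PTPRC did not, and of 5 mural markers CSPG4 and PDGFRB passed. As these were bulk libraries, fewer cells of a type and less RNA per cell cannot be told apart.

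More of the family's receptors than of its ligands were detected in the line, 17 of 26 against 4 of 18. A gene was called detected at 1 CPM or more in all 8 libraries. By this call 21 of 44 members (47.7%) were detected, against 51.3% of all listed genes. The family as a whole thus stood near the background. The size of the gap between receptors and ligands depended on this level. With 0.5 CPM in all libraries 26 members passed, and those added were all ligands. They were LTB, TNFSF9, TNFSF13B, TNFSF14 and TNFSF15, with lowest libraries at 0.554 to 0.864 CPM. The share of all genes at 0.5 CPM was not computed. Among the members chosen by symbol, all 7 receptors with a death domain were detected, as were 3 of 4 decoys, 7 of 15 other receptors and 4 of 18 ligands. FASLG and TNFRSF13B had no counts in any library, which with a limit of 3 counting steps allows up to 0.0665 to 0.0880 CPM depending on the library. These limits cover counting error only.

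**Figure D1:**
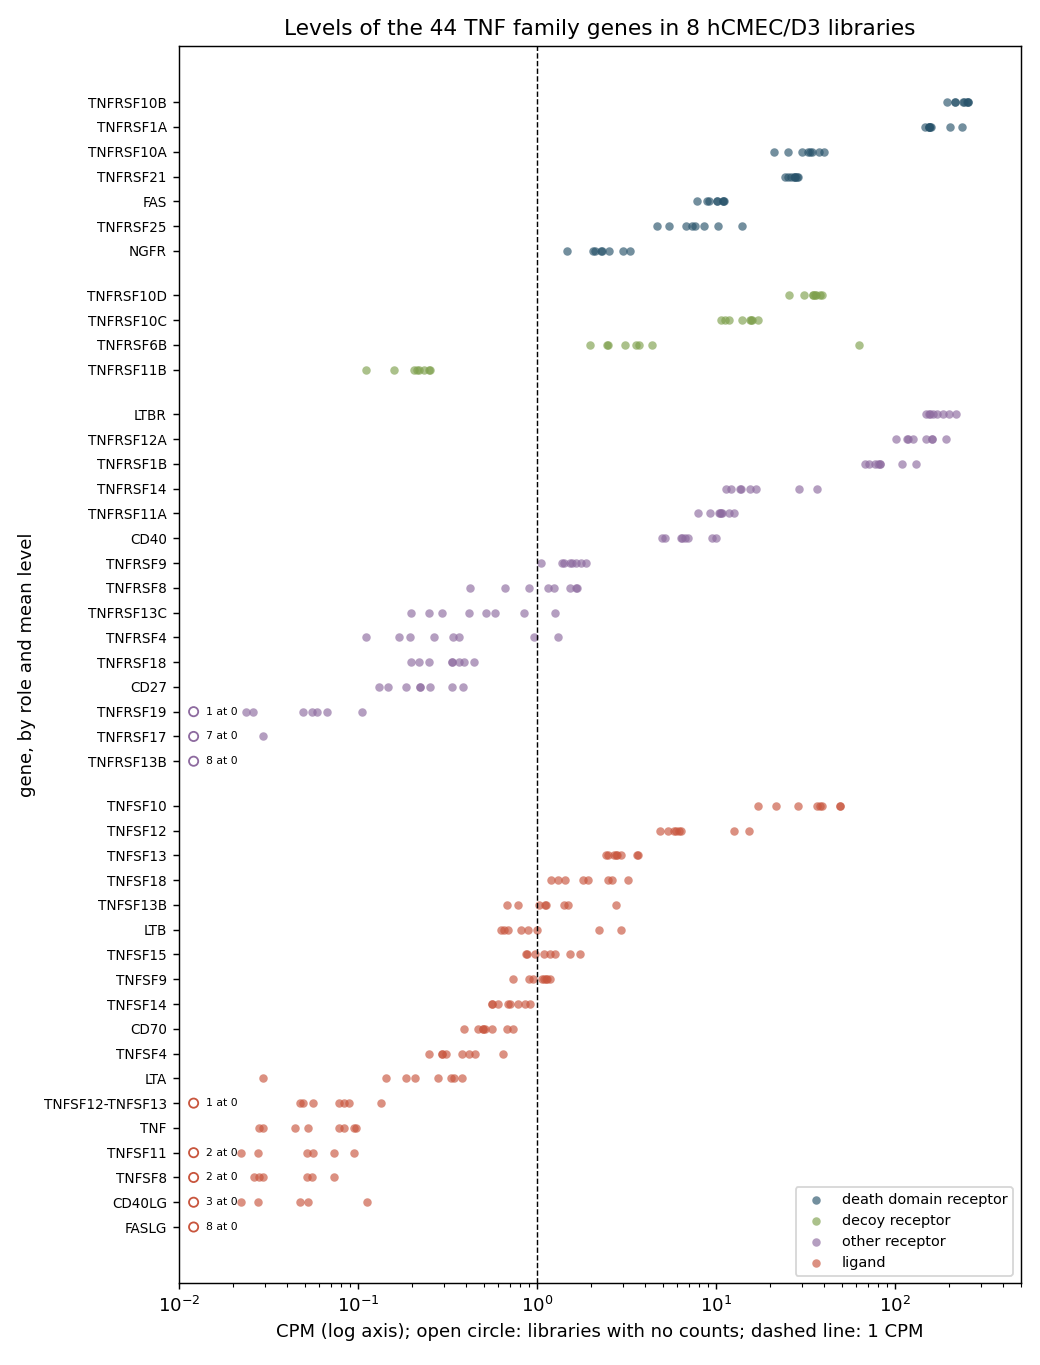
Level of each of the 44 members in each library, as CPM on a log axis, with 1 point per library, genes grouped by role and ordered by mean, and a dashed line at 1 CPM. Open circles with a count mark libraries at 0. All 7 death-domain receptors lie to the right of the line, 14 of the 18 ligands have at least 1 library to its left, and TNFRSF6B has 1 library at 62.7 CPM far from the rest.

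Among the death-domain receptors, TNFRSF1A and TNFRSF10B were the most abundant per length, at 78.2 and 58.3 RPKM. TNFRSF10B (chromosome 8, 22877648 to 22926700, minus strand, GRCh37), a receptor for the death ligand TRAIL, had a lowest, median and highest level of 193, 239.9 and 256 CPM. Its mean was 233 ± 22.8 CPM (SD, n = 8), and replicate 8 was the lowest. TNFRSF1A (chromosome 12, 6437923 to 6451283, minus strand), the main receptor for soluble TNF, ranged from 147 through a median of 155 to 234 CPM. Replicates 2 and 8 stood above the others at 203 and 234 CPM, and the other 6 lay between 147 and 157 CPM. TNFRSF10A, the other TRAIL receptor with a death domain, had 31.8 ± 6.31 CPM (SD, n = 8) and was also lowest in replicate 8, at 20.9 CPM.

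TNFRSF21, a death-domain receptor with roles in neurons and in vessel growth of the brain, was the steadiest detected member. Its levels ran from 24.0 through 27.3 to 28.5 CPM, a coefficient of variation of 5.81%. FAS (chromosome 10, 90750288 to 90775542, plus strand), the receptor for FAS ligand, ran from 7.83 through 10.1 to 11.03 CPM. FAS overlaps ACTA2 by 860 bases and the antisense gene FAS-AS1, which had 4.74 and 0.0780 CPM, and how reads in shared stretches were assigned is not given in the sources used here. TNFRSF25, the receptor for TNFSF15, ran from 4.67 to 13.9 CPM with the highest value in replicate 8. It overlaps PLEKHG5, at 29.8 CPM, by 104 bases. NGFR, the low-affinity neurotrophin receptor, was the lowest of the role per length and had 2.37 ± 0.570 CPM (SD, n = 8), and the table also lists MIR4315-1 and MIR4315-2 over a span that covers it, both with no counts.

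The decoys for TRAIL were present beside its signalling receptors. TNFRSF10D, which has a truncated death domain, ran from 25.5 through 35.3 to 38.9 CPM, and TNFRSF10C, which is anchored without a cytoplasmic part, from 10.6 through 14.7 to 17.1 CPM. With TNFRSF10A and TNFRSF10B they lie within 205033 bases of chromosome 8, and 4 of 4 genes there were detected. TNFRSF10B overlaps RHOBTB2 (56.5 CPM) by 63 bases and LOC286059 (0.356 CPM) by 959, and TNFRSF10C overlaps LOC254896 (1.15 CPM) by 744. TNFRSF11B, the soluble decoy for the bone-remodelling ligand TNFSF11, was not detected, at 0.111 to 0.252 CPM. Genes of the TRAIL receptor cluster are close paralogs, so their levels are uncertain where reads could be shared.

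Of the other receptors, TNFRSF12A, LTBR and TNFRSF1B had the highest levels per length. LTBR (chromosome 12, 6493357 to 6500732, plus strand), which responds to lymphotoxin and TNFSF14 and acts through the alternative NF-κB pathway, ran from 148 through 167 to 218 CPM. TNFRSF12A (chromosome 16, 3070313 to 3072383, plus strand), the receptor for TNFSF12 and a gene known to respond to growth factors, had 100.5, 147, 125, 117, 159, 116, 193 and 159 CPM in replicates 1 to 8. It was highest in replicate 7 and lowest in replicate 1. TNFRSF1B, the TNF receptor without a death domain, ran from 67.6 through 80.6 to 131 CPM, and the microRNA gene MIR4632 inside it had 0.00717 CPM.

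TNFRSF14, a receptor for TNFSF14 that also binds inhibitory partners on lymphocytes, had 29.0 and 36.4 CPM in replicates 2 and 8 and 11.3 to 16.6 CPM in the other 6, so those 2 libraries stood apart. It overlaps LOC100133445 (0.624 CPM) by 646 bases. TNFRSF11A, the signalling receptor for TNFSF11, had 10.4 ± 1.44 CPM, and CD40, which binds a ligand of activated T cells and platelets, had 6.99 ± 1.83 CPM (SD, n = 8 each). TNFRSF9, a costimulatory receptor, passed narrowly, with its lowest library at 1.04 CPM. The other receptors that were not detected had mean levels up to 1.15 CPM for TNFRSF8, and they included the lymphocyte receptors TNFRSF4, TNFRSF13C, TNFRSF17, TNFRSF18 and CD27, together with TNFRSF19.

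The 4 detected ligands were TNFSF10, TNFSF12, TNFSF13 and TNFSF18. TNFSF10 (chromosome 3, 172223298 to 172241297, minus strand), which encodes TRAIL, had 49.1, 49.1, 28.8, 38.1, 17.0, 36.5, 21.6 and 38.9 CPM in replicates 1 to 8. Replicates 5 and 7 were the lowest, and the same libraries had 159 and 193 CPM of TNFRSF12A, among its 3 highest. TNFSF12, a ligand linked to vessel growth and tissue repair, had 12.6 and 15.2 CPM in replicates 2 and 8 against 4.82 to 6.32 CPM in the others. TNFSF13, a survival factor for plasma cells, ran from 2.41 to 3.63 CPM. The read-through gene TNFSF12-TNFSF13 covers both, and had 0.0667 CPM, so reads shared with it could shift either level. TNFSF18, the ligand of TNFRSF18, ran from 1.19 to 3.22 CPM.

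TNF itself was not detected, with 40 counts over all 8 libraries and 0.0280 to 0.0974 CPM. The undetected members with the highest means were TNFSF13B, LTB and TNFSF15, at 1.29, 1.22 and 1.19 CPM. LTB, a lymphotoxin subunit, reached 2.22 and 2.93 CPM in replicates 2 and 8 and lay between 0.629 and 0.998 CPM elsewhere. Its partner LTA had 0.236 CPM. There were 6 members with no counts in some libraries only, namely TNFRSF17 in 7, CD40LG in 3, TNFSF11 and TNFSF8 in 2 each, and TNFRSF19 and TNFSF12-TNFSF13 in 1 each.

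Per length, TNFRSF12A was the highest member at 143 ± 31.1 RPKM (SD, n = 8), from 103 to 197, a range that did not overlap the next gene. LTBR had 81.6 ± 11.4 RPKM and TNFRSF1A 78.2 ± 14.5 RPKM. LTBR was above TNFRSF1A in 6 of 8 libraries and their ranges overlapped, so their order was not resolved. TNFRSF10B followed at 58.3 ± 5.70 RPKM, above TNFRSF1B (23.7 RPKM) in 8 of 8 libraries with no overlap of their ranges. From TNFRSF1B through TNFSF10 at 18.6 RPKM down to FAS at 3.85 RPKM, the ranges of each neighbouring pair overlapped. Within libraries, TNFRSF1B was above TNFSF10, TNFSF10 above TNFRSF10A, TNFRSF10D above TNFRSF6B and TNFSF12 above CD40 in 7 of 8 each, and these orders were not tested. FAS stood above TNFSF13 (1.61 RPKM) in 8 of 8, and NGFR (0.696 RPKM) above TNFRSF9 (0.260 RPKM). The mean of TNFRSF6B, 9.24 RPKM, rested on 1 library, since 7 of its 8 libraries lay below TNFRSF21.

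Ligands and their receptors were compared within each library, as the log2 ratio of (CPM + 0.1) per kilobase. Of 20 pairs, 15 had at least 1 detected gene and no library at 0 and were tested, each by an exact permutation test that flips the signs of the 8 libraries (two-sided), with adjustment over the 15. For 13 of them the exact p was 0.00781, the smallest that 8 libraries can give, with an adjusted p of 0.00901. The receptor exceeded its ligand in 8 of 8 libraries for 6 of the 8 ligand pairs. In those of TNF, LTB, TNFSF14 and TNFSF15 the ligand was not detected, so the pair was tested only because its receptor was. For these pairs the direction and p-value largely follow from that filter. The pairs TNFSF9/TNFRSF9 and TNFSF18/TNFRSF18 also held only 1 detected gene. For TNFSF10 only TNFRSF10B, the highest of the TRAIL receptor cluster per length, was paired. By mean RPKM TNFSF10 (18.6) lay above TNFRSF10A (11.8), TNFRSF10C (9.98) and TNFRSF10D (9.70), and those pairs were not tested. TNFSF10 was below TNFRSF10B by a mean log2 ratio of -1.72 ± 0.56 (SD, n = 8), and TNFSF12 below TNFRSF12A by -4.74 ± 0.56. The gap was wider for LTB and LTBR (-5.98) and for TNFSF14 and TNFRSF14 (-5.82), and was -4.36 for TNFSF15 and TNFRSF25. It was -9.65 for TNF and TNFRSF1A, a size the pseudocount understates. TNFSF9 exceeded TNFRSF9 by 1.31, and TNFSF18 exceeded TNFRSF18 by 0.95, both in 8 of 8 libraries, but the first was -0.53 without length scaling and the latter -0.19 with a pseudocount of 1. FAS was at least 77.7-fold above FASLG per length, with FASLG set to 3 counting steps in each library.

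Of the 7 pairs made of 2 receptors or of 2 ligands, 5 differed in level. TNFRSF1A exceeded TNFRSF1B by a log2 ratio of 1.74 ± 0.12, and among TRAIL receptors TNFRSF10B exceeded TNFRSF10A by 2.32 ± 0.21 and TNFRSF10D by 2.59 ± 0.09 (SD, n = 8 each). The last ratio was the tightest of the 15. TNFSF13 lay below TNFSF12 by -1.67, and TNFRSF11B below TNFRSF11A, which binds the same ligand, by -3.15. The latter pair was tested only because TNFRSF11A was detected. The decoys TNFRSF10D and TNFRSF10C could not be ordered, at -0.04 ± 0.32 with a range of -0.63 to 0.35 (exact permutation p = 0.758, adjusted 0.812). Without length scaling their ratio was 1.30 (exact permutation, adjusted p = 0.00901), and in the authors' CQN values, a length- and GC-adjusted log2 scale, it was 0.80 (exact permutation, adjusted p = 0.00938). FAS and its soluble decoy TNFRSF6B had a ratio of -0.03 (exact permutation p = 0.992), from -4.15 in replicate 8 to 1.26 in replicate 1, and without replicate 8 the mean was 0.56 (exact permutation, adjusted p = 0.0335).

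**Figure D2:**
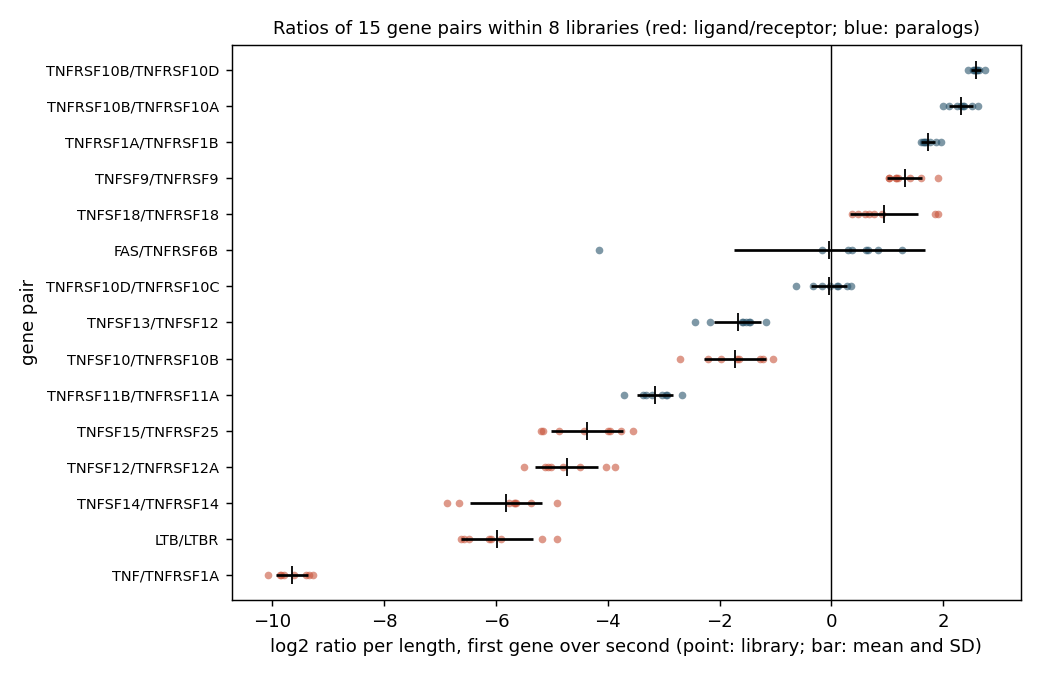
Log2 ratio of the first gene over the second, per length, in each of the 8 libraries (points) with mean and SD (bars), for the 15 pairs tested; red pairs are ligand over receptor and blue pairs are paralogs. The 8 points of TNF over TNFRSF1A lie between -10.09 and -9.27, while FAS over TNFRSF6B has 1 library at -4.15.

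Members that neighbour each other on a chromosome differed in level in some places. On chromosome 12, TNFRSF1A, LTBR and CD27, a receptor of T and B cells, lie within 122962 bases, and the first pair was among the highest members while CD27 had 0.130 to 0.382 CPM. CD27 overlaps LOC678655, at 3.64 CPM, by 6633 bases. LTA, TNF and LTB on chromosome 6 had 0 of 3 detected, and so did TNFSF9, CD70 and TNFSF14 on chromosome 19. On chromosome 1, TNFSF18 was detected and its neighbour TNFSF4 was not, and TNFRSF1B was detected and its neighbour TNFRSF8 was not. To show how the sequence before the start of such neighbours differs, the 250 bases upstream of the RefSeq start (GRCh38.p14) are given in gene orientation for TNFRSF1A (chr12:6342077-6342326, minus strand), LTBR (chr12:6383912-6384161, plus) and CD27 (chr12:6443642-6443891, plus), with capitals marking GC boxes, GGGCGG or its complement CCGCCC.
TNFRSF1A: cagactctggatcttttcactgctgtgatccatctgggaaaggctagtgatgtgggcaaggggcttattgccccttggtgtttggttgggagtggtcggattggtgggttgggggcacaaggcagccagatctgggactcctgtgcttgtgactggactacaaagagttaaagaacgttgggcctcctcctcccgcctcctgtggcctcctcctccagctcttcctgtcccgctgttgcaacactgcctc
LTBR: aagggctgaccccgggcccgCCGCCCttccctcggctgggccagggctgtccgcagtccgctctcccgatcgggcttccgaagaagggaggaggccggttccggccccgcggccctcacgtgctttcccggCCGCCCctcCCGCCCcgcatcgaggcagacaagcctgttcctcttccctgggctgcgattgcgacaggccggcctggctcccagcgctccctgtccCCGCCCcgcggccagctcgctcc
CD27: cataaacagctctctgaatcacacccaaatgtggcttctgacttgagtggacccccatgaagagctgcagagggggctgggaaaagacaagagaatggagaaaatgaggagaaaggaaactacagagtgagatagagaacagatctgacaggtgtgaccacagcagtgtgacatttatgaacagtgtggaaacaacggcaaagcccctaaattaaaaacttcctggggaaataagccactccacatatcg
The LTBR sequence held 74.8% G or C, 27 CpG steps and 4 GC boxes. That of TNFRSF1A, a gene of similar level per length, held 56.8%, 4 CpG steps and no GC box, and that of CD27 held 46.0%, 2 CpG steps and none. The most upstream RefSeq start was used for each gene, and for CD27 it lies upstream of the gene start listed with the counts.

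Such sequences were in the RefSeq table for 28 of the 44 members. The 13 detected ones had a median of 62.8% G or C and a GC box in 9 (69.2%), and the 15 not detected had 55.2% and a GC box in 7 (46.7%). Over all 35116 promoters of the table the median was 58.0% and 42.6% held a GC box on either strand. Median CpG steps were 9 and 4 in the detected and undetected members, against 11 overall. These are descriptions, and the difference between the sets was not tested. The presence of a match does not show that a factor binds.

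TNFRSF6B (chromosome 20, 62328004 to 62330051, plus strand), a secreted decoy that binds FAS ligand, TNFSF14 and TNFSF15, was the member that varied most. Its levels in replicates 1 to 8 were 1.97, 2.48, 3.70, 3.08, 3.58, 2.44, 4.38 and 62.7 CPM. Replicate 8 was thus 20.3 times the median of the other 7, which did not exceed 4.38 CPM. Its whole span of 2048 bases lies in the read-through gene RTEL1-TNFRSF6B, and 57 bases overlap ARFRP1 on the other strand. In the same library RTEL1-TNFRSF6B was 2.30 times, RTEL1 2.50 times and ARFRP1 2.13 times the median of the others, and the further neighbours ZGPAT, LIME1 and SLC2A4RG were 2.15, 3.15 and 2.38 times. These neighbours were also raised in replicate 2, by 1.63 to 2.30 times, where TNFRSF6B was at 0.805 times. The rise of TNFRSF6B in replicate 8 was larger than that of the genes around it. Whether the sequence before its start bears on that rise was not tested. The sequence before the RefSeq start of TNFRSF6B (chr20:63696402-63696651, plus strand, GRCh38.p14) is given with the GC box in capitals.
TNFRSF6B: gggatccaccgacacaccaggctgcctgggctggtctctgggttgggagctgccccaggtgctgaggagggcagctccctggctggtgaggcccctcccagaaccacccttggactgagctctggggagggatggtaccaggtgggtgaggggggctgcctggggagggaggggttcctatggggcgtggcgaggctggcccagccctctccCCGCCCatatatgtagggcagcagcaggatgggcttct
It held 68.0% G or C, 4 CpG steps and 1 GC box.

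**Figure D3:**
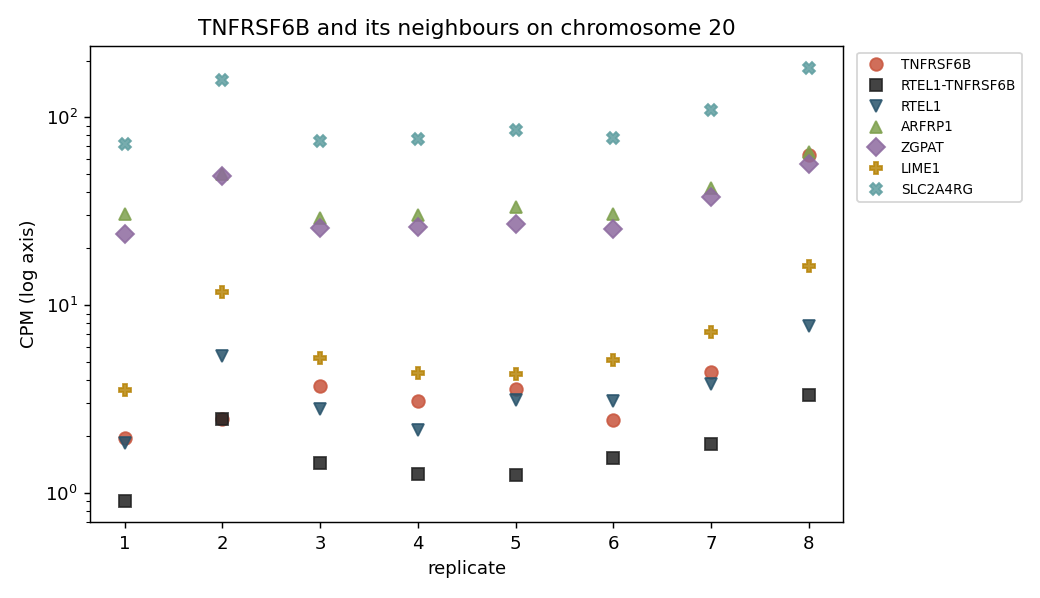
Levels of TNFRSF6B and 6 neighbouring genes in replicates 1 to 8, as CPM on a log axis with 1 point per gene and library. TNFRSF6B reaches 62.7 CPM in replicate 8 and stays at or below 4.38 CPM in the other 7, whereas the neighbours rise in both replicates 2 and 8.

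The spread of each gene between the replicates was tested against the trend of all detected genes with edgeR's goodness-of-fit test. TNFRSF6B was the 1 member of 21 above the trend (adjusted p = 2.86e-38), against 4.66% of all detected genes, and without replicate 8 it was not (adjusted p = 0.731). TNFRSF14 and TNFSF12 missed the threshold (adjusted p = 0.0518 and 0.0649), and so did TNFSF10 (adjusted p = 0.231). TNFSF10 passed without replicate 8 (adjusted p = 0.0209) and once the length slope described next was in the model (adjusted p = 5.03e-15), which also gave TNFRSF12A (adjusted p = 0.0147). With the DESeq2 trend 6 members passed: TNFRSF6B, TNFRSF14, TNFRSF25, TNFSF10, TNFSF12 and TNFSF18. That trend called 2811 of the 11980 detected genes, against 558 with the edgeR trend and 499 with the length slope in the model. The median coefficient of variation was 19.8% for detected members and 19.2% for all detected genes, and 10 of the 21 lay below the latter.

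The libraries differed along a slope on transcript length, the change of a library's deviation from the gene means per doubling of length. It was 0.14, -0.21, 0.14, 0.14, 0.08, 0.14, -0.10 and -0.32 (log2) in replicates 1 to 8, so that replicates 2, 7 and 8 held relatively more of short transcripts. In edgeR's quasi-likelihood test 16 of 21 detected members moved with it, against 72.7% of all detected genes, a share near the background. Of these, 6 had positive coefficients (33.3% of all genes) and 10 negative ones (39.4%). The slope comes from the same expression values, so this describes which members move with it.

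FAS, TNFRSF10A, TNFRSF10B, TNFRSF10D, TNFRSF21 and TNFSF18 had positive coefficients, with 0.28 ± 0.05 (log2 per SD of the slope, SE) for TNFRSF10A, though FAS had -8.0e-04 in the CQN values. All but TNFSF18 had their lowest level in replicate 8. CD40, LTBR, TNFRSF12A, TNFRSF14, TNFRSF1A, TNFRSF1B, TNFRSF25, TNFRSF6B, TNFSF12 and TNFSF13 had negative ones, with -0.57 ± 0.07 for TNFRSF14 and -0.56 ± 0.08 for TNFSF12, but LTBR, TNFRSF12A and TNFRSF1A turned positive in the CQN values. TNFRSF14 and TNFSF12 were not called in the CQN values, at -0.15 (limma adjusted p = 0.0901) and -0.17 (limma adjusted p = 0.108), nor in the counts without replicates 2 and 8, at -0.11 and -0.04. The coefficient of TNFRSF6B, -1.51, rested on replicate 8 (-0.07 without it, adjusted p = 0.683). The median transcript was 3139.5 nt for the positive members, 1756.5 nt for the negative ones and 3350 nt for all detected genes. As the slope is defined on transcript length, shorter transcripts among the negative members are built into it. Without replicates 2 and 8, 6 of 21 members were called, and 6573 of all genes. Without replicate 8 alone the counts were 12 and 7465, against 16 and 8715 with all 8 libraries.

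The authors' CQN values, which adjust each library for length and GC content, gave another set. In limma on these values 9 of 21 members moved with the slope, against 41.9% of all detected genes, again near the background. Positive coefficients (19.1% of all genes) were found for LTBR, TNFRSF10A, TNFRSF10B, TNFRSF10C, TNFRSF11A, TNFRSF12A, TNFRSF21 and TNFSF18, and a negative one (22.7%) for TNFRSF9. Called the same way in both fits were TNFRSF10A, TNFRSF10B, TNFRSF21 and TNFSF18. In the counts without replicates 2 and 8, TNFRSF10A was at 0.069 (quasi-likelihood adjusted p = 0.285) and TNFRSF21 at 0.051 (quasi-likelihood adjusted p = 0.176). TNFRSF10B was still called there, at 0.087 (quasi-likelihood adjusted p = 0.0166). The direction was opposite for LTBR, with -0.19 ± 0.03 in counts and 0.20 ± 0.03 in CQN values, and for TNFRSF12A, with -0.21 ± 0.08 and 0.40 ± 0.08. In the counts TNFRSF12A was not called without replicate 1, 3, 4 or 6, nor TNFRSF21 without replicate 1, 3, 4, 5, 6 or 8, TNFSF13 without replicate 2 or 8, or TNFRSF10D without replicate 8.

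**Figure D4:**
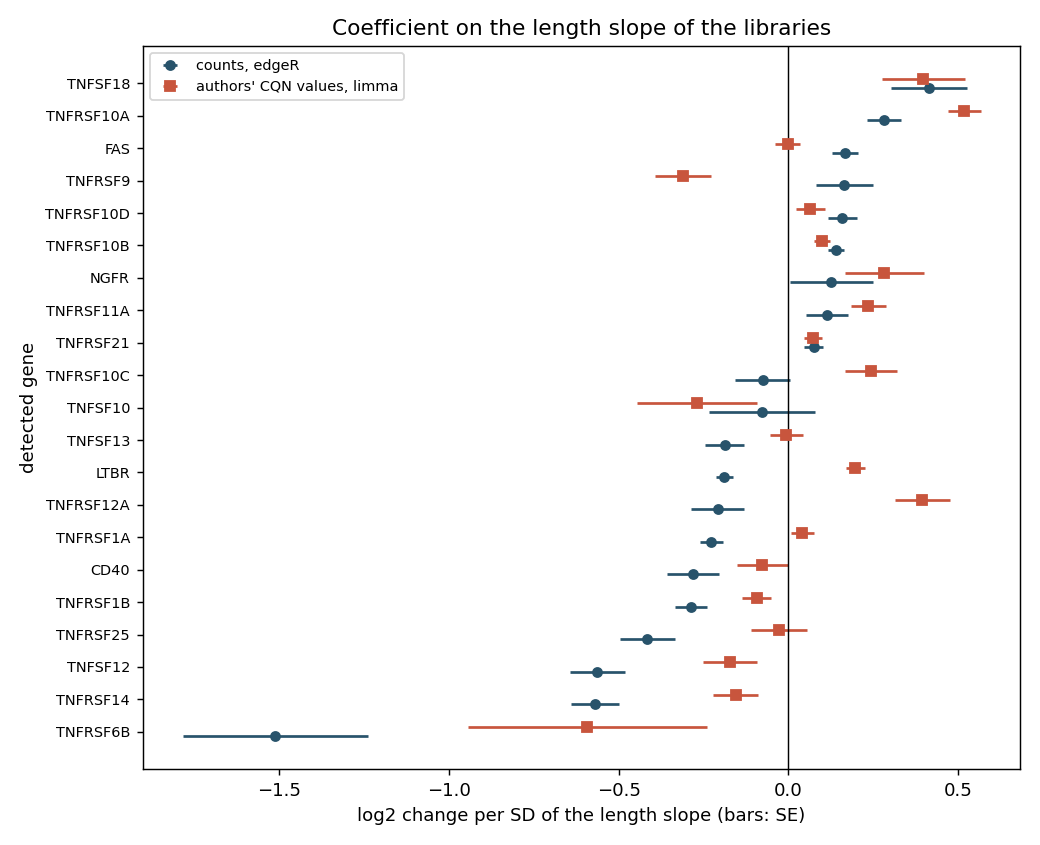
Coefficient of each detected member on the length slope of the libraries, in log2 per SD of the slope with SE bars, from the counts (circles, edgeR) and from the authors' CQN values (squares, limma). LTBR and TNFRSF12A lie left of 0 in the counts and right of 0 in the CQN values, and TNFRSF6B is farthest left in both.

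The genes that act just behind these receptors were detected throughout. All 29 genes of a receptor-proximal list (adaptors, caspases, TRAFs, inhibitors of apoptosis, the linear ubiquitin complex and the proteases that release ligands) were detected, against 51.3% of all listed genes. The highest per length were SHARPIN and RBCK1, subunits of the linear ubiquitin ligase, at 35.3 and 24.9 RPKM, and BIRC2, an inhibitor of apoptosis, at 23.6 RPKM. The death adaptors FADD and TRADD had 22.5 and 15.8 RPKM, and CASP8, the initiator caspase, 15.8 RPKM. SHARPIN (adjusted p = 0.0472) and ADAM10 (adjusted p = 0.00881), a protease that releases ligands and receptors, were above the edgeR variation trend, 2 of 29 against 4.66% of all detected genes. On the length slope 14 of the 29 were positive and 10 negative, against 33.3% and 39.4% of all detected genes.

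Genes known to respond to TNF in endothelium were mostly detected, although TNF was not. Of 17 listed genes 15 were detected, against 51.3% of all genes in the table, and CSF2 and CXCL3 were not. NFKBIA, the inhibitor of NF-κB, led at 83.0 RPKM, followed by the chemokine CXCL1 at 41.2 RPKM and the adhesion molecule ICAM1 at 39.8 RPKM. VCAM1 and SELE, adhesion molecules that TNF is known to raise, had 5.33 and 0.707 RPKM. The chemokine genes IL8 (adjusted p = 0.0293) and CXCL2 (adjusted p = 0.0232) were above the edgeR variation trend, 2 of 15 against 4.66% of all detected genes. On the length slope 3 of the 15 had positive and 3 negative coefficients, against 33.3% and 39.4% of all detected genes. Of 4 family members that the symbol rule leaves out, RELT was detected at 22.2 CPM, and EDA, EDAR and EDA2R were not.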

How the data were processed

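Gene expression was measured by RNA sequencing in 8 replicates of hCMEC/D3. CASAVA 1.9, TopHat2 2.0.6, HTSeq and hg19 are named per the submitters' processing notes; the use of strand and the annotation are not given in the sources used here. The authors deposited raw counts per gene, and log2-scale values normalised by conditional quantile normalisation (CQN), per the file headers. CQN values were given for 13962 genes, including all 21 detected members. Members and gene lists were chosen with earlier results of these data known. All members are named by symbol, with values for detected ones, as are the genes of each list that were highest, called or, where few, undetected. VCAM1, SELE, FADD, TRADD and CASP8 already belonged to these lists, and the choice to name them was made after their values were seen.

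CPM was computed on TMM-scaled library sizes (edgeR 4.0.16, R 4.3.3). RPKM used GENCODE 44 canonical transcripts lifted to GRCh37, for 21456 genes. Spread was tested with edgeR's goodness-of-fit test and the length slope with its quasi-likelihood test over 11980 detected genes, both Benjamini-Hochberg adjusted. limma 3.58.1 (CQN values) and DESeq2 1.42.0 served as alternatives. On simulated counts for those genes the slope test called 66 of 100 genes at 0.5 log2 per SD and 100 of 100 at 1, and 9 of 11780 unchanged ones, and the spread test called 200 of 200 genes raised 8-fold in 1 library. In these simulations few genes changed, and the slope of the real libraries was kept fixed. In the data the slope comes from the tested values themselves, so the rate of false calls there was not measured. Total counts per library were 69388544 to 90205244. The table's starts, counted from 0, are printed counting from 1. Promoter sequences came from RefSeq (GRCh38.p14), with the most upstream start listed for each member.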

Additional observations from a re-analysis of the deposited data

Results flagged for a closer look

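TNFRSF6B was the 1 member, of 21 checked, in which a single library lay far from the other 7. Its highest level was 62.7 CPM in replicate 8, the next was 4.38 CPM and the lowest 1.97 CPM. The gap to the next library was 0.960 of the whole range, above the critical value of 0.526 for 8 samples, which chance passes in about 1 of 20 groups. Its neighbours on chromosome 20 were 2.13 to 3.15 times the median of the other libraries in replicate 8, and the part of these neighbours in the value of TNFRSF6B was not tested.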

How the results depend on the processing

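Detection of members gave 33 with a minimum of 10 counts in every library, against 21 at 1 CPM. The share of all listed genes at that minimum was not computed, so the 33 cannot be set against the background. Members above the variation trend numbered 3 with no filter on low counts, 6 with the DESeq2 trend and 3 with the length slope in the model, against 1. All genes above it numbered 671, 2811 and 499 in the same order, against 558. Members moving with the length slope numbered 9 in CQN values and 6 without replicates 2 and 8 (an alternative chosen after seeing the data), against 16. All genes moving with it numbered 5018 and 6573, against 8715. The median RPKM of detected members was 7.56 without replicate 8, against 9.24.

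Coefficients on the length slope changed sign in CQN values for FAS (-8.0e-04), LTBR (0.20), TNFRSF10C (0.24), TNFRSF12A (0.40), TNFRSF1A (0.042) and TNFRSF9 (-0.31). Without replicates 2 and 8 they did so for NGFR (-0.18), TNFRSF10C (0.14) and TNFSF10 (0.34). Leaving out each library in turn gave -0.071 to 0.19 for NGFR and -0.17 to 0.029 for TNFSF10. The ratio of TNFSF18 to TNFRSF18 was -0.19 with a pseudocount of 1. Without length, the ratio of TNFSF9 to TNFRSF9 was -0.53, that of TNFRSF10D to TNFRSF10C 1.30 and that of FAS to TNFRSF6B 1.14. In CQN values these were 0.55 (adjusted p = 0.0682), 0.80 and 0.42. Leaving out each library gave -0.095 to 0.046 for TNFRSF10D to TNFRSF10C and -0.22 to 0.56 for FAS to TNFRSF6B. The cause of these changes was not tested. No paired analysis was possible because there was 1 group. Members under 1 CPM rest on few counts, and levels there are the least certain.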
